A study of Mus musculus with 2 samples.

Results

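*Reln*, *Ndnf* and *Cxcl14* encode secreted proteins, and these 3 of the 500 panel genes were taken by name from the tables of counts per cell to describe where their transcripts lay around the surface of the embryonic cortex. The rule for choosing them was their names and used no measured value, but it was set with earlier results of these data known. The counts came from MERFISH, in which single RNA molecules are identified in tissue by reading fluorescent barcodes over rounds of imaging, on single 10 µm coronal sections of flash-frozen whole heads at E16.5, 1 from a control mouse embryo and 1 from a *Dnmt1* knockout (KO). The study asked how loss of the DNA methyltransferase gene *Dnmt1* from *Sst*-expressing interneurons affects the developing cortex. Both embryos carried a Cre recombinase driven by the *Sst* gene (Ssttm2.l(cre)Zjh/J) and the Cre-dependent CAG-tdTomato reporter at the ROSA26 locus, so Cre was limited to cells that had expressed *Sst*. The control (*Sst-Cre/tdTomato*) had no loxP-flanked *Dnmt1* allele in its label, whereas the KO (*Sst-Cre/tdTomato/Dnmt1 loxP2*) also carried B6;129S-Dnmt1tm2Jae/J, in which part of *Dnmt1* is flanked by loxP sites.

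Reelin, the product of *Reln*, is released by Cajal-Retzius cells of the marginal zone, the cell-sparse layer under the pia, and guides the placement of migrating cortical neurons. *Ndnf* encodes neuron-derived neurotrophic factor, and in the mature cortex it marks interneurons of layer 1, many of which also express *Reln*. *Cxcl14* encodes a chemokine that is made by connective tissue and skin as well as by some interneurons. The marginal zone lies directly under the meninges, so transcripts of secreted factors from neurons and from mesenchymal cells occur side by side within a short distance.

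With 1 section per genotype, no test between control and KO was possible, and genotype cannot be told apart from imaging run, litter or section position. All intervals below are exact 95% intervals that cover counting error only. The control section held 108533 segmented cells and 2842355 transcripts (median 20 per cell), and the KO section held 110004 cells and 13437174 transcripts (median 101 per cell). Analyses used the cells with at least 20 transcripts, which were 50.9% of control and 92.0% of KO cells. *Dnmt1* was not among the panel genes, so the deletion could not be checked. Levels are given as CPM, the count of a gene per 1000000 panel transcripts. A blank barcode, which codes for no gene, had a median of 82.1 CPM in the control and 87.5 CPM in the KO, with the highest of the 50 blanks at 262 and 240 CPM, respectively. Probe numbers per gene are not given in the sources used here, so the level of one gene was not set against that of another.

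*Reln* spans 460249 bases of chromosome 5 (22089452 to 22549700, minus strand, GRCm39). The panel listed as its target a 3-exon transcript of 891 bases (22089893–22101066) that is annotated without a defined coding sequence, and 85.4% of these bases lie in exons of the longest coding *Reln* transcript, which has 65 exons. *Ndnf* lies on chromosome 6 (65648574 to 65689310, plus strand), where the target was its coding transcript of 4 exons and 10101 bases. *Cxcl14* lies on chromosome 13 (56436352 to 56444603, minus strand), where the target was a coding transcript of 4 exons and 1991 bases.

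*Reln* and *Ndnf* formed a narrow band at the surface of the cortex, and *Cxcl14* lay outside it. The pallial region, which holds the developing cortex, was drawn from 5 pallial and 12 subpallial genes without the 3 genes described here, and it covered 3.46 mm² in either section with an outer edge of 7.13 mm in the control and 6.80 mm in the KO. Levels were profiled over distances of -300 to 400 µm from this edge, negative outside. Cells in the first 25 µm inside had the highest *Reln* level of these distances, at 12243 CPM (11232–13321) in the control and 18419 CPM (17903–18946) in the KO. Between 100 and 200 µm inside, *Reln* was at 969 CPM in the control and 751 CPM in the KO, so that the peak was 12.6-fold and 24.5-fold higher. *Ndnf* peaked in the same 25 µm, at 5691 CPM (5009–6440) in the control and 5940 CPM (5648–6243) in the KO, beside 165 CPM (105–248) and 121 CPM (99.7–146) at 100 to 200 µm, which lay within the range of the blanks, so no fold is given. These 2 genes thus shared their peak in both sections.

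*Cxcl14* was low where *Reln* and *Ndnf* peaked. In the first 25 µm inside the edge its level was 544 CPM (349–810) in the control and 546 CPM (460–643) in the KO. Its highest level within the profiled distances lay outside the cortex, 100 to 125 µm from the edge in the control (17525 CPM, 16112 to 19029) and 125 to 150 µm from it in the KO (29496 CPM, 28530 to 30485). At 100 to 200 µm inside it was at 187 CPM (122–274) in the control, within the range of the blanks, and at 287 CPM (253–324) in the KO, near the highest blank. The cell layers did not meet the drawn edge alike in both sections. From 25 to 50 µm outside, *Reln* was still at 6643 CPM in the control but at 1069 CPM in the KO, and 7 mesenchymal genes together (*Dcn*, *Efemp1*, *Osr1*, *Col14a1*, *Col15a1*, *Thbs2*, *Crabp2*) made up 13490 CPM in the control and 30532 CPM in the KO in the first 25 µm inside. The part of this offset in differences between sections within a single 25 µm step was not tested.

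**Figure D1:**
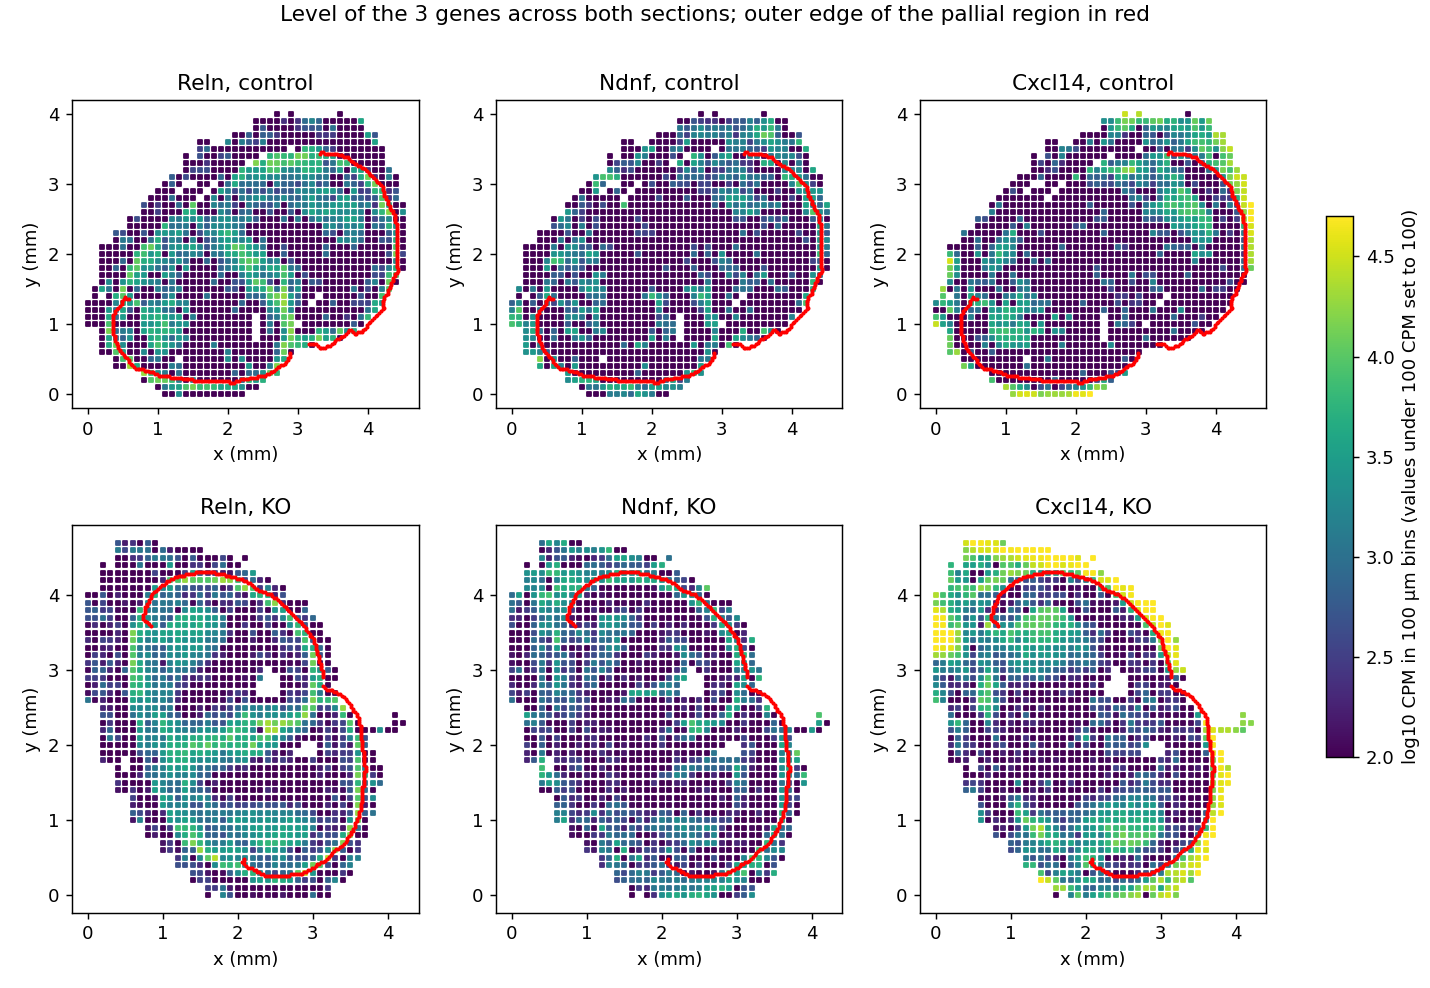
Level of *Reln*, *Ndnf* and *Cxcl14* (log10 CPM, colour) in 100 µm bins across the control section (top) and the KO section (bottom), with x and y in mm and the outer edge of the pallial region in red. *Reln* and *Ndnf* followed the red edge, whereas *Cxcl14* was highest outside it and in areas deep in the section.

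**Figure D2:**
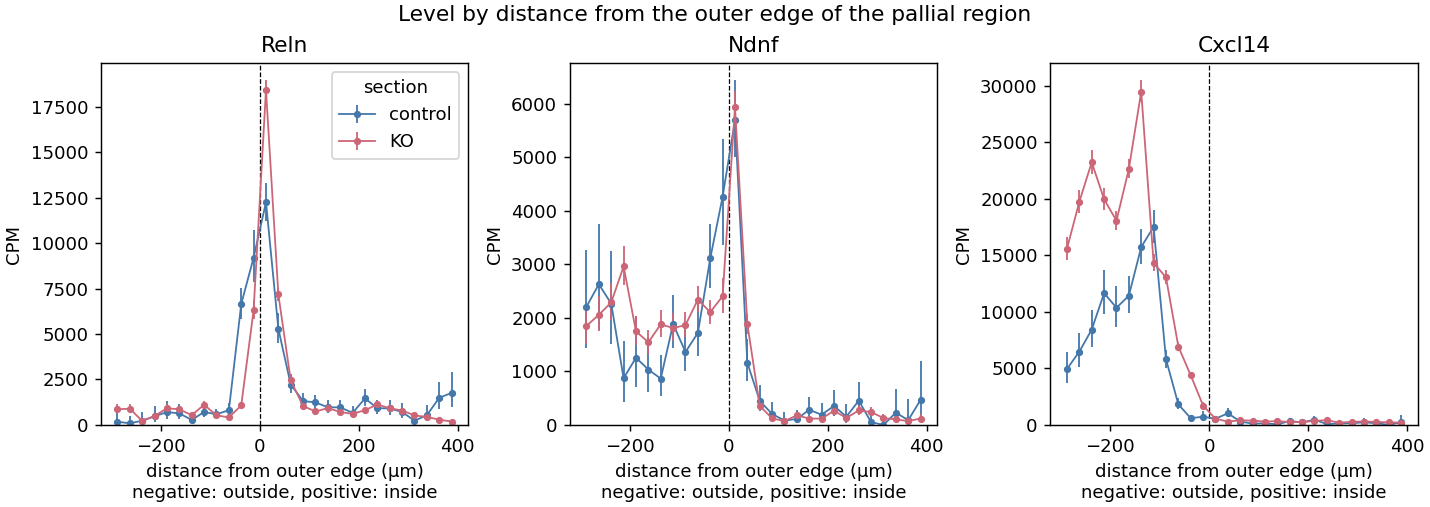
Level of each gene (CPM) against distance from the outer edge of the pallial region in µm, negative values outside and positive values inside, for the control (blue) and KO (red) section, with 95% counting intervals as bars. *Reln* and *Ndnf* peaked in the first 25 µm inside in both sections, and *Cxcl14* peaked between 100 and 150 µm outside.

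A large part of each gene's transcripts nonetheless lay away from the surface. Within 100 µm of the edge on either side lay 27.9% (26.6–29.2) of *Reln* transcripts in the control and 31.9% (31.4–32.5) in the KO. For *Ndnf* the share was 29.3% (27.4–31.4) in the control and 33.3% (32.4–34.3) in the KO. All panel transcripts had 11.3% in this band in either section, so *Reln* and *Ndnf* were enriched there by more than the counting error. *Cxcl14* was not, with 8.24% (7.45–9.09) in the control and 8.48% (8.23–8.73) in the KO. This share depends on the width of the band, since a band of 150 µm reached the outer *Cxcl14* peak and held 30.1% of its control and 19.0% of its KO transcripts. Outside the pallial region and the band lay 53.6% of control and 52.4% of KO *Reln* transcripts, 62.0% and 57.5% of *Ndnf* transcripts, and 89.9% and 89.6% of *Cxcl14* transcripts.

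*Reln* and *Ndnf* occurred in the same cells near the edge more often than their frequencies would give. *Reln* and *Cxcl14* did so less often over the whole band in the KO, but not on its inner side alone. For this comparison each cell was thinned to 25 transcripts, which left 4281 control and 9991 KO cells near the edge and dropped 803 and 125 shallower cells. Both *Reln* and *Ndnf* were found in 63 control cells, 4.59 times (3.53–5.86) the number expected from the share of each gene. In the KO they were found together in 132 cells, 5.68 times (4.76–6.73) the expected number. Of the cells with *Ndnf*, 35.8% in the control and 38.3% in the KO also had *Reln*, and of the cells with *Reln*, 18.9% and 19.6% also had *Ndnf*. In the outer pallium, the first 100 µm inside the edge, *Reln* was found in 38 of 76 *Ndnf* cells of the control and in 117 of 203 (57.6%) of the KO. In the inner pallium, more than 100 µm from this edge, the pair was at 12.7 times (7.53–20.05) expectation in the control and 21.5 times (15.0–29.7) in the KO. In the part of the section outside the pallial region and the band, 5.68% of control and 3.84% of KO *Ndnf* cells had *Reln*, and the ratio to expectation was 1.75 (1.16–2.53) and 1.38 (0.935–1.95). Co-detection in thinned cells was thus stronger in both pallial zones than in the rest of the section, with intervals that did not overlap. With at least 2 transcripts of each gene in unthinned cells, the control values near the edge (12.5, 9.71 to 15.7) and in the rest (13.1, 7.49 to 21.3) overlapped, whereas the KO values did not (5.85, 5.23 to 6.51, against 3.02, 2.50 to 3.62).

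*Reln* and *Cxcl14* were found together near the edge in 3 control cells, 0.340 times (0.0702–0.994) the expected number, and in 5 KO cells, 0.165 times (0.0537–0.386). Within the outer pallium alone the ratio was 0.484 (0.0123–2.69) and 1.24 (0.403–2.89), and both intervals included 1. In unthinned cells there it was 1.71 (0.823–3.15) and 1.82 (1.46–2.24). With at least 2 transcripts of each gene it was 5.10 (1.05–14.9) and 2.70 (1.71–4.04). A low value was thus not found on the inner side of the band by itself. There the unthinned KO value and both values with at least 2 transcripts lay above 1. Outside the edge the ratio in thinned cells was 0.360 (0.0436–1.30) in the control and 0 (0–0.416) in the KO. Without thinning, the control value for the whole band was 0.699 (0.415–1.10), with at least 2 transcripts of each gene 0.914 (0.189–2.67), and without the largest 1% of cells 0.351 (0.0723–1.02), and all 3 intervals included 1. *Ndnf* and *Cxcl14* were found together in 8 control cells and 18 KO cells, at 1.72 times (0.744–3.39) and 1.16 times (0.688–1.83) expectation, and both intervals included 1. In unthinned cells this pair was above expectation in both sections, at 1.75 (1.15–2.54) and 2.02 (1.81–2.24). All 3 genes were detected in 1 thinned control cell and 2 thinned KO cells.

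Shares of cells with a transcript were set beside those of other classes, since a transcript near a cell border can be counted in a neighbour. Near the edge, *Reln* was found in 7.80% (7.02–8.65) of thinned control cells and 6.74% (6.25–7.25) of thinned KO cells (11.4% and 18.5% unthinned). Glutamatergic neuron-like cells of the pallial region had 1.87% and 1.39%. Their cluster led by *Slc17a7* had *Reln* at 1649 and 1445 CPM, above the median of all clusters at the main resolution (833 and 389 CPM). Endothelial-like cells (1681 and 1365 CPM) and microglia-like cells (1186 and 1076 CPM) were above it too. The parts of own and neighbouring RNA in these levels were not tested, so the glutamatergic neuron-like cells are no settled background. *Ndnf* was found in 4.11% (3.54–4.75) of control and 3.45% (3.10–3.83) of KO cells near the edge (6.83% and 13.2% unthinned), against 0.246% and 0.135% of glutamatergic neuron-like cells. *Cxcl14* was found in 2.64% (2.18–3.16) and 4.49% (4.10–4.92) of cells near the edge (4.45% and 12.3% unthinned), against 0.359% and 0.538%. Pallial microglia-like cells had *Reln* in 5.26% (2.43–9.76) of 171 control and 4.85% (3.06–7.24) of 454 KO cells. The *Reln* share near the edge was above this second class in both sections, but within overlapping intervals. The *Ndnf* share of these microglia-like cells was 3.51% (1.30–7.48) for the control and 1.54% (0.622–3.15) for the KO, and either interval overlapped that of the cells near the edge. Pallial microglia-like cells had *Cxcl14* in 0 of 171 control cells, which allows a share of up to 2.13%, and in 0.881% (0.241–2.24) of KO cells. Most *Cxcl14* of the band lay outside the edge (297 of 367 control and 3753 of 4150 KO transcripts), where these pallial classes do not lie. Microglia-like cells of the whole section had *Cxcl14* in 6.44% (5.14–7.95) and 11.4% (10.1–12.8), above the shares near the edge.

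Cells near the edge were also grouped by their own *Reln* count, and *Ndnf* was highest in the group with the most *Reln*. Control cells with 0 *Reln* transcripts had *Ndnf* at 944 CPM (819–1083), and the 57 cells with 5 or more had it at 25478 CPM (21637–29804). In the KO the corresponding *Ndnf* levels were 1030 CPM (971–1091) and, in 434 cells, 16087 CPM (15336–16866). Between these ends, *Ndnf* was at 3242 CPM with 1 and 10184 CPM with 2 to 4 *Reln* transcripts in the control, but at 921 CPM (778–1082) and 2152 CPM (1892–2439) in the KO, so that cells with 1 were not above those without *Reln* there. *Cxcl14* went the other way, from 1548 CPM in control cells without *Reln* to 163 CPM (4.13–910) in those with 5 or more, and from 3295 to 664 CPM (519–838) in the KO, with middle groups at 763 and 854 CPM in the control, whose intervals overlapped, and at 1572 and 1102 CPM in the KO. The 7 mesenchymal genes went down along the same groups, from 35328 to 4410 CPM in the control and from 49637 to 6893 CPM in the KO, and the 3 Cajal-Retzius genes on the panel (*Calb2*, *Ebf3*, *Cxcr4*) went up from 1976 to 16659 CPM and from 1107 to 11242 CPM. The 14 GABAergic neuron genes on the panel were highest in the middle groups, at 15637, 32038, 26099 and 19108 CPM from 0 to 5 or more *Reln* transcripts in the control and at 12595, 32889, 46281 and 31323 CPM in the KO. The groups also differed in depth, with a median of 39 transcripts in control cells without *Reln* and 96 in those with 5 or more (115 and 223.5 in the KO), and the part of depth in these differences was not tested.

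**Figure D3:**
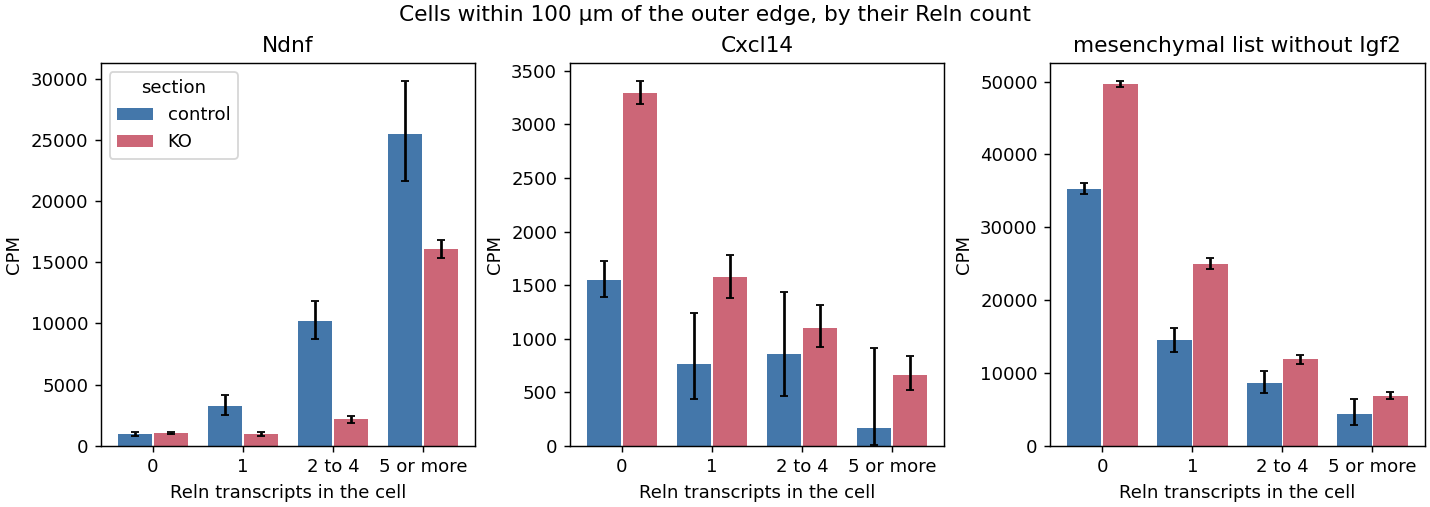
Level (CPM) of *Ndnf*, of *Cxcl14* and of 7 mesenchymal genes together in cells within 100 µm of the outer edge, grouped by the number of *Reln* transcripts in the cell, for the control (blue) and KO (red) section, with 95% counting intervals. *Ndnf* reached 25478 CPM in control and 16087 CPM in KO cells with 5 or more *Reln* transcripts, and the mesenchymal genes were highest in cells without *Reln*.

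The cell classes behind these transcripts were read from clusters made on the other 497 panel genes, so that the level of the 3 genes in a cluster was not used to form it. A cluster was named from marker lists only where at least 3 of its 10 leading genes were on the list. Of 26 clusters at the main resolution 13 were named, and of 34 clusters at a finer one 17. In the finer clustering, a Cajal-Retzius-like cluster, led by *Ebf3*, *Ccnd2* and *Tmem163* and with all 3 Cajal-Retzius genes on the panel among its leading genes, held 595 control and 693 KO cells. Since *Trp73*, *Lhx5* and most other markers of these cells are not on the panel, and *Ebf3* also led a mesenchymal-like cluster, the name rests on 3 genes.

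*Reln* was highest in the Cajal-Retzius-like cluster in both sections, at 25519 CPM (24033–27072) in the control and 48411 CPM (47291–49551) in the KO. With 1.08% of control and 0.684% of KO cells, this cluster held 24.2% of control and 27.9% of KO *Reln* transcripts. The next cluster was GABAergic neuron-like, led by *Npas1*, *Nxph1* and *Erbb4*, at 7316 CPM (6584–8108) in the control and 6167 CPM (5892–6451) in the KO, and neither interval overlapped those of the neighbours in the order. Over all 34 clusters the median *Reln* level was 975 CPM in the control and 835 CPM in the KO. From the third to the sixth place, neighbours in the control order overlapped in their intervals. At the main resolution no cluster was named Cajal-Retzius-like. A GABAergic neuron-like cluster with leading genes of both of these clusters had *Reln* at 15976 CPM in the control and 20833 CPM in the KO. After thinning, *Reln* was found in 38.1% (33.9–42.4) of control and 55.7% (51.8–59.6) of KO Cajal-Retzius-like cells (49.2% and 78.6% unthinned). In the mesenchymal-like clusters of the main resolution *Reln* was at 205 CPM (160–257) in the control and 203 CPM (180–228) in the KO, within the range of the blanks, and these cells held 1.61% and 1.11% of its transcripts. Counting cells by marker transcripts in place of clusters gave 10.0% and 6.66%. An unnamed main-resolution cluster with *Crabp2* and *Osr1* among its leading genes had *Reln* at 1827 CPM (1514–2187) and 1025 CPM (903–1158). Of its cells 34.7% and 43.5% lay near the edge. Another unnamed one, led by *Creb3l1* and with 26.5% and 40.1% near the edge, had *Reln* at 166 and 91.6 CPM. The part of neighbouring RNA in these levels was not tested.

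*Ndnf* had its highest level in the same Cajal-Retzius-like cluster, at 9758 CPM (8848–10736) in the control and 15436 CPM (14806–16086) in the KO. The cluster with the next highest level, with *Chat* (the enzyme that makes acetylcholine) and *Tacr1* among its leading genes, had *Ndnf* at 4056 CPM (3282–4958) and 5139 CPM (4795–5500), and 0 of its cells in either section lay within 100 µm of the edge. The mesenchymal part of *Ndnf* was larger than that of *Reln*. Mesenchymal-like cells had *Ndnf* at 1394 CPM (1274–1522) in the control and 1531 CPM (1467–1598) in the KO and held 24.5% (22.6–26.4) and 21.6% (20.8–22.5) of its transcripts. Their share was 9.85% and 4.48% at the finer resolution, where a cluster led by *Hhip*, *Creb3l1* and *Npnt* that held 10.9% and 17.5% of *Ndnf* passed no list's threshold, and 42.4% and 39.0% by marker transcripts.

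Outside the edge in the KO, different clusters held most of *Reln* and *Ndnf*, whereas Cajal-Retzius-like cells held the largest named part of both in the outer pallium. In the outer pallium 171 Cajal-Retzius-like cells held 39.9% (36.5–43.3) of *Reln* and 58.3% (52.5–63.8) of *Ndnf* in the control, and 408 such cells held 60.7% (59.5–61.8) and 70.0% (67.9–71.9) in the KO. Cells of the GABAergic neuron-like *Npas1* cluster held a further 24.7% of *Reln* in the control and 18.9% in the KO. Outside the edge, 165 control and 63 KO Cajal-Retzius-like cells, which were 8.33% and 1.90% of the cells there, held 54.9% and 54.0% of *Reln*. *Ndnf* outside the edge was held mainly by the *Hhip*, *Creb3l1* and *Npnt* cluster in the KO (57.9%, 55.1 to 60.8), and by Cajal-Retzius-like cells (37.3%) and that cluster (21.6%) in the control. At the main resolution the mesenchymal-like share in the whole band was 0.946% (0.490–1.65) and 0.679% (0.512–0.882) for *Reln* but 7.89% (5.85–10.3) and 12.3% (11.2–13.5) for *Ndnf*. These shares leave out unnamed clusters. Among those, a main-resolution cluster led by *Creb3l1* had *Ndnf* at 1936 CPM (1616–2302) in the control and 2335 CPM (2182–2496) in the KO. Of its cells 26.5% and 40.1% lay near the edge.

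At the main resolution mesenchymal-like cells held more *Cxcl14* than any other named class. The 6075 control and 8972 KO cells of this class held 49.5% (48.0–51.0) and 49.8% (49.3–50.2) of *Cxcl14* transcripts. Near the edge they held 54.2% (49.0–59.4) in the control and 61.3% (59.8–62.8) in the KO. At the finer resolution the mesenchymal-like share was 15.6% and 20.2%, since several clusters with mesenchymal genes then fell below the naming threshold. Counting cells by marker transcripts in place of clusters gave 62.1% and 65.0%. At the main resolution the highest *Cxcl14* level of all control clusters, 9309 CPM (8853–9784), was in a mesenchymal-like cluster. It was led by *Hdc*, the enzyme that makes histamine, *Efemp1* and *Osr1*. At the finer resolution the highest control level, 26720 CPM (24994–28534), was in a small unnamed cluster of 544 control and 1327 KO cells. This cluster was led by *Hdc*, *Crabp1*, a retinoic acid-binding protein, and *Sim1*. In the KO this cluster was at 45004 CPM (44133–45889), and it held 20.01% of control and 20.7% of KO *Cxcl14* transcripts. After thinning, *Cxcl14* was found in 44.2% (39.8–48.7) of its control and 59.4% (56.6–62.0) of its KO cells (60.1% and 87.8% unthinned).

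Neurons were a second place of *Cxcl14* transcripts, and in the outer pallium neuron-like clusters held most of the few that lay there. Striatal projection neuron-like cells, whose main markers are *Drd1*, *Drd2*, *Tac1* and *Penk*, had *Cxcl14* at 3180 CPM (2943–3430) in the control and 5095 CPM (4980–5212) in the KO and held 15.0% and 15.2% of it. In the outer pallium, where only 70 control and 397 KO *Cxcl14* transcripts lay, a GABAergic neuron-like cluster with *Sst* and *Elfn1* among its leading genes had 6620 CPM (4661–9125) and 5748 CPM (4610–7082). It held 52.9% (40.6–64.9) of the control and 22.2% (18.2–26.6) of the KO transcripts there while making up 3.48% and 1.31% of the cells. Glutamatergic neuron-like cells led by *Slc17a7*, *Nr4a2* and *C1ql3* held 12.9% (6.05–23.0) of these transcripts in the control and 38.3% (33.5–43.3) in the KO, at 280 CPM (128–531), near the highest blank, and 676 CPM (573–792). Cajal-Retzius-like cells had *Cxcl14* at 162 CPM (65.2–334) and 403 CPM (307–520), and of the thinned cells 0.387% and 0.929% had a transcript. The 77 control cells of the pallial region with 2 or more *Sst* transcripts had 0 *Cxcl14* transcripts, which allows a level of up to 707 CPM, and the 470 such KO cells had 53 (476 CPM, 356 to 622). The *Reln* level of these *Sst*-positive cells was 4985 CPM (3256–7304) in the control and 3385 CPM (3052–3744) in the KO.

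Microglia-like cells also had *Cxcl14*, but by place. In the pallial region their level was 102 CPM (2.59–570) in the control and 326 CPM (196–509) in the KO, outside the edge 1732 CPM (1109–2576) and 5778 CPM (5172–6435), and in the rest of the section 3986 CPM (3471–4556) and 12511 CPM (12043–12993). Over the whole section the same cells had the 7 mesenchymal genes at 68440 CPM in the control. The part of neighbouring mesenchymal RNA in these values was not tested.

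**Figure D4:**
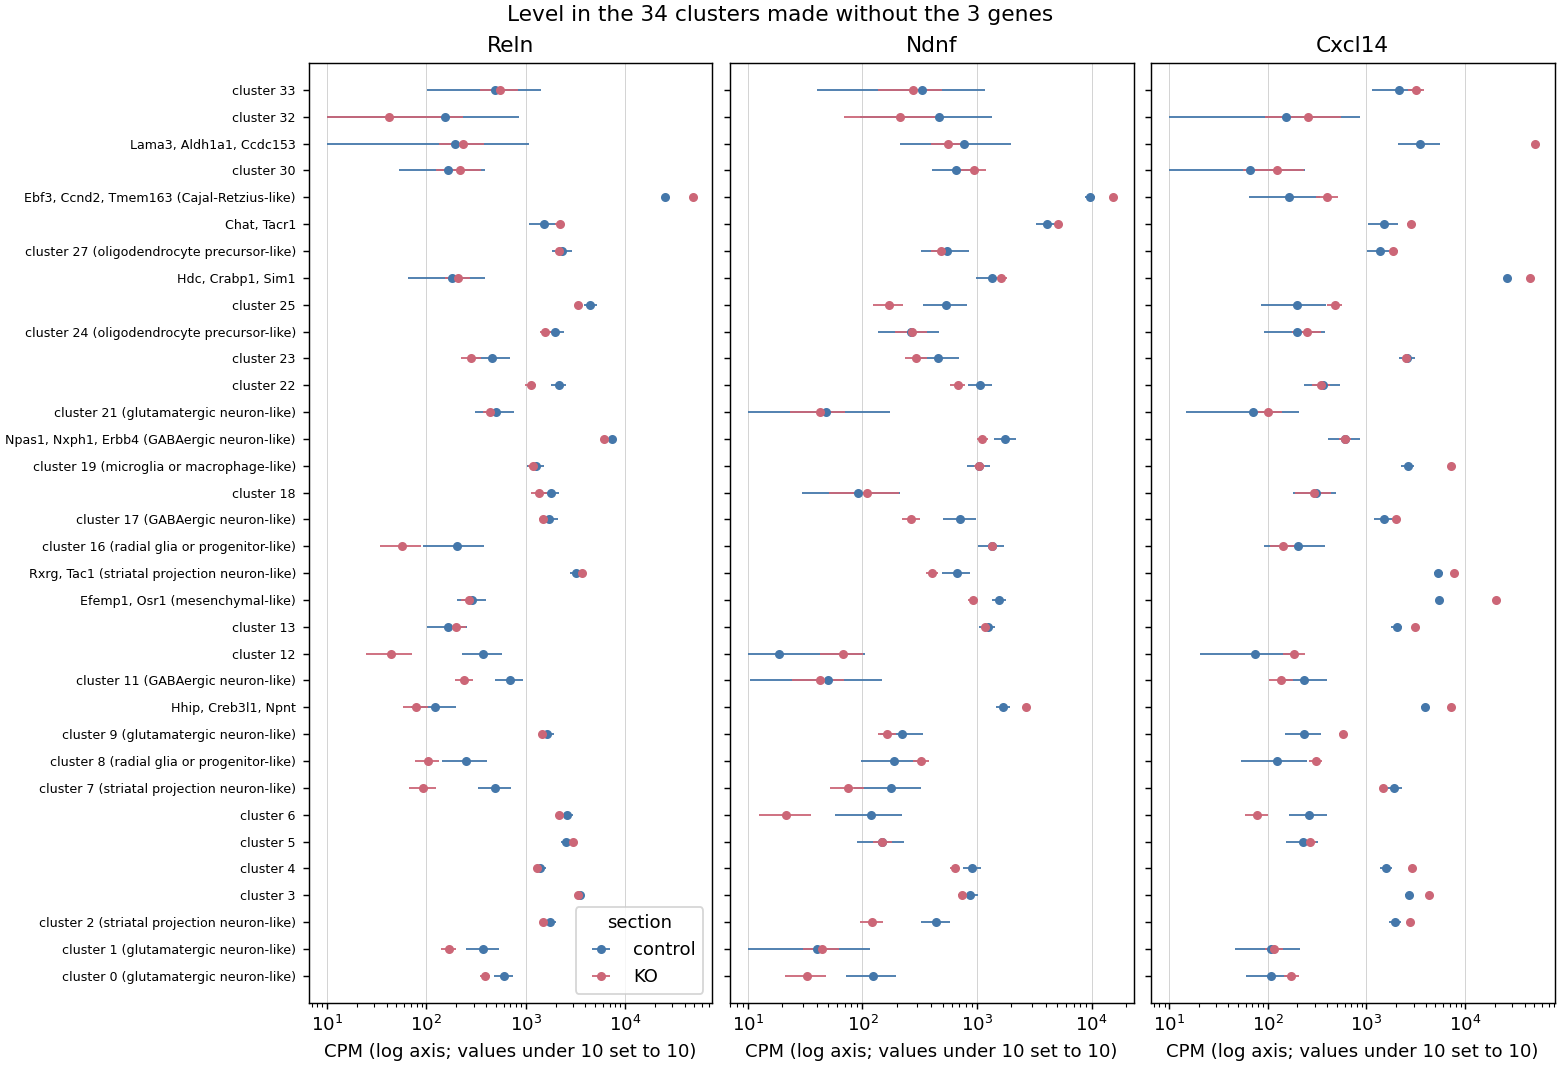
Level (CPM, log axis) of each gene in the 34 clusters of the finer resolution, made without the 3 genes, in the control (blue) and KO (red) section with 95% counting intervals. Clusters the text describes carry some of their leading genes, and the others a number. The Cajal-Retzius-like cluster had the highest *Reln* and *Ndnf* in both sections, and the clusters led by *Hdc* and by *Lama3* had the highest *Cxcl14* in the KO.

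Far from the drawn outer edge, *Reln* and *Ndnf* were higher again with both hemispheres pooled. This edge leaves out parts of the region's boundary, so a large relative depth need not mean deep in the cortex. Of the pallial transcripts, the first of 10 equal steps of relative depth from the outer edge held 38.7% of *Reln* in the control and 54.6% in the KO, and 57.0% and 64.5% of *Ndnf*. In the fourth step *Reln* was at 876 CPM (662–1137) and 783 CPM (700–873). The course below was uneven, with *Reln* in the control at 3481 CPM in the seventh, 1358 CPM in the eighth and 4754 CPM in the tenth step, and in the KO at 1694, 2157 and 1731 CPM. In the ninth step it was at 2933 CPM (2506–3411) and 2560 CPM (2397–2732). *Ndnf* was at 125 and 132 CPM in the fourth step, within the range of the blanks. It was at 559 and 604 CPM in the ninth and 1068 and 440 CPM in the tenth step. The hemispheres were unequal in the inner pallium, and they are given here in the order of their *Reln* level, so that the *Reln* difference is a description. *Reln* was at 2473 CPM (2304–2651) in one control hemisphere and 509 CPM (369–686) in the other, and at 2060 CPM (1991–2130) and 448 CPM (411–487) in the KO. *Ndnf* differed in the same direction, at 506 against 142 CPM in the control and 483 against 78.8 CPM in the KO, with both lower values within the range of the blanks. *Cxcl14* was at 208 against 190 CPM, within the range of the blanks, and at 345 against 305 CPM. The hemisphere with more *Reln* held 129 Cajal-Retzius-like cells of the inner pallium against 10 in the other for the control, and 118 against 9 for the KO. These cells carried 44.9% of the inner *Reln* of that hemisphere in the control and 51.7% in the KO, and 61.5% and 48.5% of it lay within 100 µm of some boundary of the region, where 37.4% and 32.7% of the cells lay. The inner pallium of that hemisphere had 8109 control and 14436 KO cells, against 2685 and 9587 in the other, and the part of this inequality in the *Reln* and *Ndnf* levels was not tested.

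Beyond the cortex, *Reln* was at lower levels in several clusters. Striatal projection neuron-like cells of a cluster led by *Rxrg* and *Tac1* had it at 3218 CPM (2822–3653) in the control and 3679 CPM (3537–3825) in the KO. At the main resolution a cluster led by *Irs4*, *Baiap3* and *Calcr*, which held 1.22% and 0% of its cells in the pallial region, had *Reln* at 2631 CPM (2357–2929) and 3089 CPM (2965–3218). Cells with 5 or more transcripts numbered 129 in the control and 892 in the KO for *Reln*, 30 and 351 for *Ndnf*, and 94 and 3031 for *Cxcl14*. They held 21.4% of control and 41.0% of KO *Reln* transcripts, 9.50% and 28.8% of *Ndnf*, and 13.4% and 66.2% of *Cxcl14*. Of these cells, 44.2% and 48.7% lay near the edge for *Reln*, 60.0% and 44.2% for *Ndnf*, and 9.57% and 8.18% for *Cxcl14*. The highest counts in 1 cell were 57 for *Reln*, 25 for *Ndnf* and 65 for *Cxcl14*, all in the KO, where depth per cell was higher.

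Between the sections, *Cxcl14* differed more than *Reln* or *Ndnf* with both hemispheres pooled. Over the whole section *Cxcl14* was at 1919 CPM (1863–1976) in the control and 3656 CPM (3624–3689) in the KO, a log2 ratio of 0.93 (0.89–0.97) that exceeded 92.4% of the 250 panel genes at or above the median level. Its hemispheres were unequal, at 1409 and 2159 CPM in the control and 2298 and 4939 CPM in the KO, so that the 4 pairings of single hemispheres ran from a log2 ratio of 0.09 (0.04 to 0.14) to 1.81 (1.72 to 1.90). *Reln* was at 1960 and 1897 CPM (log2 ratio -0.05, -0.09 to -0.001, and -0.43 to 0.40 over the pairings) and *Ndnf* at 875 and 733 CPM (-0.26, -0.32 to -0.19). Of the 3 genes 0 passed 2-fold in the whole section, where 8% of the tested genes did, 5.6% upward and 2.4% downward. None of the 3 passed 2-fold in the pallial region either (8.8% of the tested genes, 4.8% upward and 4% downward), with log2 ratios of -0.05 (-0.13 to 0.02) for *Reln*, -0.18 (-0.32 to -0.04) for *Ndnf* and 0.33 (0.09–0.58) for *Cxcl14*, whose level of 278 and 350 CPM lay below the panel median there. The sign of all 3 ratios in the pallial region changed with the minimum per cell and with the hemispheres paired.

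Within the band the sections differed in where *Reln* lay. In the outer pallium *Reln* was at 5765 CPM (5378–6173) in the control and 7502 CPM (7330–7678) in the KO (log2 ratio 0.38, 0.28 to 0.49), and outside the edge at 3744 CPM (3405–4108) and 1635 CPM (1530–1746) (-1.20, -1.36 to -1.03). Both sides together gave 4846 and 5358 CPM (0.15, 0.06 to 0.23). Over the pairings of hemispheres this ran from -0.06 to 0.32, so its sign was not settled. *Ndnf* was at 2165 and 2161 CPM in the outer pallium (-0.002, -0.18 to 0.17) and at 2409 and 2164 CPM outside the edge (-0.16, -0.34 to 0.04). Outside the edge the pairings for *Ndnf* ran from -0.53 to 0.10. *Cxcl14* was at 490 and 414 CPM in the outer pallium (-0.25, -0.62 to 0.14) and at 2493 and 6789 CPM outside it (1.45, 1.27 to 1.62). Outside the edge 2 of the 3 genes passed 2-fold, *Reln* downward and *Cxcl14* upward, where 2.8% of the tested genes did so downward and 15.2% upward (18% in all) and the median gene was at 0.36. Over the 4 pairings of hemispheres the log2 ratio ran from -1.62 to -0.78 for *Reln* and from 0.81 to 2.08 for *Cxcl14*, so either call was lost in a pairing. The 7 mesenchymal genes outside the edge were at 60436 CPM in the control and 92634 CPM in the KO, and their part in these ratios was not tested. In the outer pallium 0 of 3 passed (8.4% of the tested genes, 6.8% upward and 1.6% downward), and likewise in the whole band (6.8%, with 5.6% upward and 1.2% downward), where *Cxcl14* was at 1401 and 2744 CPM (0.97, 0.81 to 1.13). Over the pairings its ratio in the band ran from 0.30 to 1.55, past 2-fold at the upper end, and in the outer pallium the ratios ran from -0.33 to 0.62 for *Ndnf* and from -0.99 to 0.31 for *Cxcl14*, so that neither sign was settled there. In the inner pallium, where *Cxcl14* lay below the panel median, 0 of 3 passed with both hemispheres pooled (11.2%, with 5.6% in either direction), at log2 ratios of -0.58 (-0.69 to -0.47) for *Reln*, -0.46 (-0.69 to -0.21) for *Ndnf* and 0.69 (0.36 to 1.03) for *Cxcl14*. The pairings there ran from -2.47 to 2.02 for *Reln* and from -2.68 to 1.77 for *Ndnf*, past 2-fold in either direction. The hemispheres with less *Ndnf*, at 142 CPM in the control and 78.8 CPM in the KO, lay within the range of the blanks. In the rest of the section *Cxcl14* alone passed, at 2423 and 4874 CPM (1.01, 0.96 to 1.06), where 6% of the tested genes were past 2-fold upward and 1.6% downward (7.6% in all). That call also depended on the hemispheres, since the 4 pairings ran from 0.02 (-0.03 to 0.08) to 2.12 (2.02 to 2.22).

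**Figure D5:**
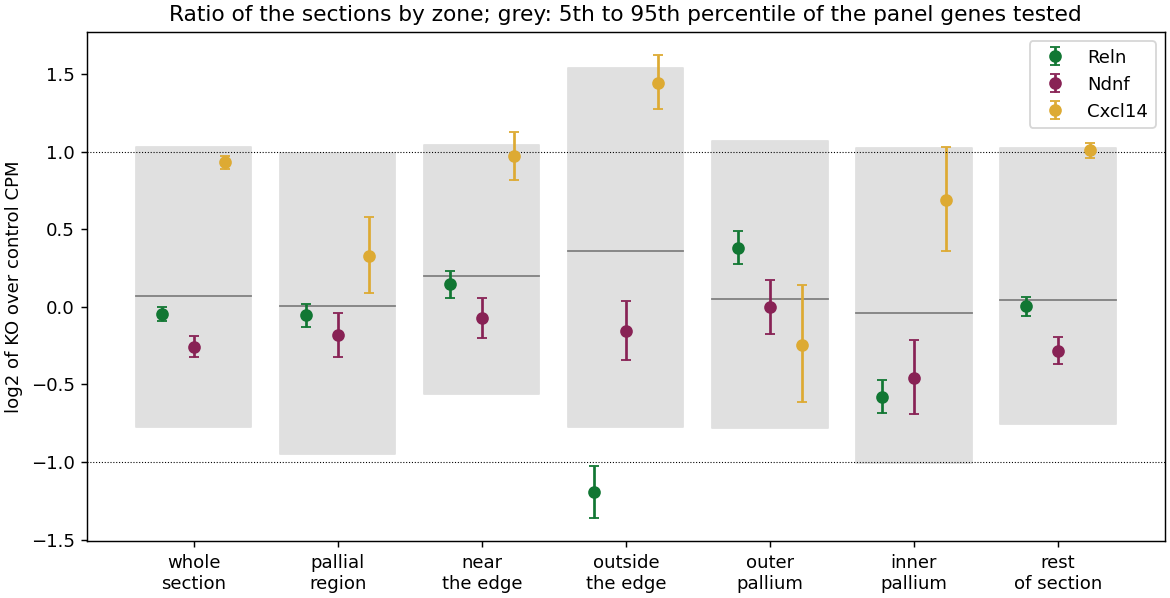
Log2 of the KO over the control level (CPM) of each gene in 7 zones, with 95% counting intervals as bars. Grey boxes span the 5th to 95th percentile of the 250 panel genes tested in each zone, grey lines mark their median and dotted lines mark 2-fold, which *Reln* passed downward and *Cxcl14* upward outside the edge.

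Inside single clusters, with both hemispheres pooled, *Cxcl14* was higher in the KO in most, and *Reln* and *Ndnf* were not. No such counts are given here for other panel genes or for single hemispheres, so these counts have no background. Of 26 clusters 24 had *Cxcl14* transcripts in both sections, and of these 19 had a higher level in the KO, 11 of them with an interval above 0, and 1 had an interval below 0 (median log2 ratio 0.64). The remaining clusters had 0 transcripts in the control and 25 and 4 in the KO. In several clusters the control level of *Cxcl14* lay within the range of the blanks. Those led by *Hopx* (132 CPM), *Calb2* (231 CPM) and *Slc17a7* (252 CPM) were among the 11, so not all of these counts rest on levels above the blanks. For *Reln*, 6 of 26 clusters were higher in the KO, 3 with an interval above 0, and 10 had an interval below 0 (median -0.33), and for *Ndnf*, in 25 clusters with transcripts in both sections, these numbers were 10, 3 and 7 (median -0.45). The largest step was in a cluster led by *Lama3*, *Aldh1a1* and *Ccdc153*, with *Cxcl14* at 2931 CPM (1641–4835) in 126 control cells and 50662 CPM (48984–52384) in 597 KO cells. This cluster held mostly KO cells, had the 7 mesenchymal genes higher in the KO too (1.16, 0.89 to 1.45) and held 7.03% of KO *Cxcl14*. Without it, an alternative added after the values had been seen, the log2 ratio over all cells was 0.83 (0.79–0.88). In the mesenchymal-like cluster led by *Hdc*, *Efemp1* and *Osr1*, *Cxcl14* was at 9309 CPM in the control and 27180 CPM in the KO (1.55, 1.47 to 1.62), while the 7 mesenchymal genes differed there by 0.33 (0.31–0.35) and over all cells by -0.16 (-0.17 to -0.15). In Cajal-Retzius-like cells *Reln* had a log2 ratio of 0.92 (0.83–1.02) and *Ndnf* of 0.66 (0.51–0.82). These cells did not lie alike in both sections, with 52.1% of them in the pallial region in the control and 77.2% in the KO, and 56.5% and 68.0% within 100 µm of the edge. Of the 3 genes that name this cluster, *Ebf3* was at 2059 and 1171 CPM in the outer pallium (a log2 ratio of -0.81), *Calb2* at 378 and 351 CPM (-0.11, -0.53 to 0.33) and *Cxcr4*, the receptor of CXCL12, at 532 and 1061 CPM (0.99, 0.66 to 1.35).

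Of 26 genes of Reelin, chemokine and matrix signalling at the surface listed for comparison, 11 were on the panel, and the Reelin receptors *Vldlr* and *Lrp8* and the adaptor *Dab1* were not among them. In the pallial region 7 of the 11 were at or above the panel median, and 4 (*Rspo1*, *Efemp1*, *Fst* and *Fgfr3*) were below it. Of the 7 tested genes 1 passed 2-fold upward, *Cxcl12*, the meningeal chemokine that attracts Cajal-Retzius cells and interneurons (1046 and 2098 CPM, an interval of the log2 ratio of 0.88 to 1.13), and 1 downward, *Vwc2* (546 and 246 CPM, -1.15, -1.34 to -0.96), beside 4.8% upward and 4% downward over all tested genes. The median of the 11 was 0.01 beside 0.01. In the outer pallium 2 of 7 tested genes passed upward, *Cxcl12* (1.08) and the matrix proteoglycan gene *Dcn* (1.12), and 0 downward, beside 6.8% and 1.6%, with a median of 0.43 over the 11 beside 0.05. Outside the edge 0 of 9 tested genes passed in either direction, beside 15.2% upward and 2.8% downward, with a median of 0.43 over the 11 beside 0.36.

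Over 100 µm bins of the section (1173 in the control, 1361 in the KO), panel genes were ranked by the mean of the Pearson r of both sections. *Ndnf* came first for *Reln*, and *Reln* first for *Ndnf*, with r of 0.42 in the control and 0.49 in the KO. In the control alone *Ccnd2* (0.45) was closer to *Reln*, and in the KO alone *Npas1* (0.52) was. Next for *Reln* by the mean came *Cldn5* (0.36 and 0.45), *Ccnd2*, *Npas1* and *Ntm*, and next for *Ndnf* came *Pdgfra* (0.33 and 0.34), *Ccnd2*, *Pmp22* and *Thbs2*. By the same mean *Crabp1* (0.60 and 0.63) came first for *Cxcl14*, ahead of *Dcn* (0.51 and 0.64, the higher r in the KO), *En1*, *Sim1* and *Pmp22*. Between *Reln* and *Cxcl14* r was -0.05 and -0.12, and between *Ndnf* and *Cxcl14* 0.16 and 0.12. Bins share depth and cell makeup with their neighbours and are not independent. Of all decoded molecules, 83.5% of *Reln*, 85.3% of *Ndnf* and 75.4% of *Cxcl14* lay in segmented cells in the control, and 82.6%, 83.7% and 79.8% in the KO, beside 81.4% and 81.6% over all panel genes.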

How the data were processed

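The authors deposited a count table per section (raw counts, 1 line a cell and 1 column a gene) from the MERSCOPE instrument (Vizgen Pan Neuro panel, 500 genes and 50 blank barcodes), with cell positions and volumes and the position and imaging plane (7 planes) of each molecule. The segmentation model is not given in the sources used here. The 3 genes, the marker lists and the gene list were chosen with earlier results of these data known.

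Cells under 20 panel transcripts and the blanks were left out. The pallial region was drawn on 25 µm bins (smoothing SD 50 µm) where 5 pallial genes made up over 50% of their sum with 12 subpallial ones. Its outer edge was the outward-facing part of the boundary within 100 µm of the convex hull of either hemisphere. Pallial cells beyond 100 µm from it counted as inner pallium even at another boundary. Hemispheres were made by k-means on pallial positions, and every cell of the section, in the brain or not, went to the nearer centre. Clusters were made with Seurat 5.3.0 (R 4.3.3) after log normalization, with 30 principal components, reciprocal PCA and Louvain resolutions of 0.8 and 1.2. Levels were computed as CPM with exact Poisson intervals and shares with exact binomial intervals (Python 3.11.15, scipy 1.17.1). Genes at or above the panel median were the tested genes, and those past 2-fold in either direction were called. No doublet caller was run, since segmented cells are not droplets, and the 1% of cells with the largest volume were left out as an alternative. Ratio, co-detection and thinning steps were tested on simulated data. The genes named are the 3 genes, marker and list genes, leading genes of clusters and the 5 most alike panel genes. Gene positions are from the GRCm39 annotation.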

Additional observations from a re-analysis of the deposited data

How the results depend on the processing

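The limits are those of 1 section per genotype, unequal depth per cell and an edge drawn by script. No paired analysis was possible because each genotype had 1 section. Of 102 recomputed values 31 stayed within the interval of the main value and the others did not. Of these, 15 log2 ratios turned sign, all within the pallial region or its outer or inner part except *Reln* over the whole section. Hemisphere pairings not among the 102 also spanned 0. For *Reln* they ran from -0.06 to 0.32 in the whole band and from -0.35 to 0.46 in the rest of the section. For *Ndnf* they ran from -0.30 to 0.17 in the whole band and from -0.53 to 0.10 outside the edge. Alternatives were planned except the *Cxcl14* ratio of all cells without the *Lama3* cluster (0.83) and the pairings of hemispheres in zones other than the whole pallial region, which were chosen after seeing the data. These pairings gave 0.090 to 1.81 for *Cxcl14* over the whole section, 0.023 to 2.12 in the rest of the section and 0.81 to 2.08 outside the edge, and -1.62 to -0.78 for *Reln* outside the edge. They gave -0.43 to 0.40 for *Reln* over the whole section, 0.30 to 1.55 for *Cxcl14* in the whole band, -0.33 to 0.62 for *Ndnf* and -0.99 to 0.31 for *Cxcl14* in the outer pallium, and -2.47 to 2.02 for *Reln* and -2.68 to 1.77 for *Ndnf* in the inner pallium. The causes were not tested.

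The log2 ratio in the pallial region went for *Reln* from -0.05 to 0.19 with no minimum per cell, -0.91 with a minimum of 50, 0.15 with all decoded molecules, 0.17 with 1 imaging plane, and -0.40 to 0.44 over 4 pairings of hemispheres. For *Ndnf* it went from -0.18 to 0.12, -1.21, 0.10, 0.23 and -0.38 to 0.34 under the same settings. For *Cxcl14* it went from 0.33 to -0.13 with a minimum of 50, 0.58 with 1 imaging plane, and -0.20 to 0.59 over the pairings.

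The share near the edge with bands of 50 and 150 µm was 24.3% and 30.3% for *Reln* in the control, 28.0% and 34.2% in the KO, 23.3% and 33.8% for *Ndnf* in the control, 25.8% and 38.1% in the KO, 2.02% and 30.1% for *Cxcl14* in the control and 2.26% and 19.0% in the KO, where all molecules gave 9.08%.

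Co-detection without thinning was 2.34 for *Reln* with *Ndnf*, 0.657 for *Reln* with *Cxcl14* and 2.02 for *Ndnf* with *Cxcl14* in the KO. With at least 2 transcripts of each gene it was 12.5 for *Reln* with *Ndnf* and 0 for *Ndnf* with *Cxcl14* in the control, and 0.540 for *Reln* with *Cxcl14* in the KO.

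The mesenchymal share at the finer resolution and by marker counts was 0.814% and 10.0% for *Reln* in the control, 0.504% and 6.66% in the KO, 9.85% and 42.4% for *Ndnf* in the control, 4.48% and 39.0% in the KO, 15.6% and 62.1% for *Cxcl14* in the control, and 20.2% and 65.0% in the KO. With a minimum of 50 it was 2.09%, 26.6% and 58.5% in the control for *Reln*, *Ndnf* and *Cxcl14*.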
